A study of Mus musculus with 2 samples.

Results

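Transporters of the Slc10, Slco, Slc22, Slc47, Slc16 and Slc17 families were examined in liver tumors of *Fabp4*-/- and WT mice. The members were all protein-coding genes of the deposited table whose symbols place them in these 6 families, 71 of 48526 genes. Of these, 40 reached at least 1 TPM (a transcript level corrected for length and scaled so that all genes of a library share the same total) in the higher library and are called measured here.

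Each genotype was represented by 1 library of polyA RNA from liver tumor nodules. The *Fabp4*-/- library came from male mice of the C57BL/6N background with a global deletion of *Fabp4*, and the WT library from their male littermates with the gene intact. All mice had been given DEN (*N*-nitrosodiethylamine, a liver carcinogen) intraperitoneally at 25 mg/kg at 14 days of age, followed by a HFD (high-fat diet) for 29 weeks from 6 weeks of age, so that both libraries come from carcinogen-treated, fat-fed animals and neither from normal liver. The sources used here do not state how many mice or tumors entered a library. Since each genotype had a single library, no difference has a replicate check, no p-value was computed, and any difference between the genotypes also holds whatever distinguished the tumors sampled. *Fabp4* itself was at 0.03 TPM in the *Fabp4*-/- library and 44.1 TPM in the WT library, from 1 estimated read pair and 1786.

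The families share the task of moving small organic molecules across cell membranes. Hepatocytes take up bile acids from blood through the sodium-dependent carrier encoded by *Slc10a1* and through organic anion transporting polypeptides of the Slco family, and they release bile acids and drugs into bile through ABC pumps and the Slc47 extruders. Slc22 members carry organic cations, carnitine or organic anions, Slc16 members carry lactate, ketone bodies, creatine or aromatic amino acids, and Slc17 members carry phosphate and urate across the cell surface or load vesicles. In normal liver several of these genes mark the differentiated hepatocyte, and their mRNA differs between the zones of the lobule.

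Depth was 59600850 estimated read pairs in the *Fabp4*-/- library and 56353665 in the WT library, of which the 71 members took 0.142% and 0.171%. Ratios are log2 of *Fabp4*-/- over WT, by TPM after adding 0.5 TPM and by the authors' normalised counts after adding 10. The median of the 13557 measured genes of the table was −0.46 by TPM and 0.04 by normalised counts, so a TPM ratio of 0 lies above the median gene. A gene was counted as higher or lower only where it differed at least 2-fold by both measures in the same direction. Intervals are 95% exact binomial intervals of the log2 ratio of normalised counts without a pseudocount, and they cover counting error only. The defining hepatocyte genes were abundant, with *Alb* at 65261 TPM in the *Fabp4*-/- library and 49157 TPM in the WT library, and 8 of 8 hepatocyte markers were measured, none at 0, with 3 counted higher (*Slc10a1*, *Cps1* and *Ttr*) and 0 lower and a summed level of 120986 and 88923 TPM. The list includes the members *Slc10a1* and *Slco1b2*. All 8 pericentral markers were measured, with 6 counted lower and 0 higher and a summed level of 784 TPM in the *Fabp4*-/- library and 3490 TPM in the WT library, while 7 of 8 periportal markers were counted higher and 0 lower, with 2077 and 668 TPM. Of 6 T and NK cell markers, 6 were counted lower, with 5.81 and 60.0 TPM in sum.

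Among the 40 measured members, 5 were counted higher in the *Fabp4*-/- library and 3 lower. The 5 are *Slc10a1* (bile acid uptake), *Slc22a7* and *Slc22a29* (organic anion transport), *Slc47a1* (cation extrusion) and *Slc17a8* (vesicular glutamate transport). The 3 are *Slc10a5*, *Slco3a1* and *Slc22a3*. These make 12.5% and 7.5% of the measured members, beside 1.81% and 6.02% of all 13557 measured genes, so the share counted higher lay above that of all genes and the share counted lower lay close to it. By TPM alone 5 members were at least 2-fold higher and 7 lower, where 2.18% and 14.2% of all genes were. By normalised counts alone 11 were higher and 3 lower, where 4.78% and 6.26% of all genes were. Of the 187 measured Slc genes outside these families, 4 were counted higher and 12 lower. Of the 40 members 1 (*Slc17a8*) reached 1 TPM only in the *Fabp4*-/- library and 2 (*Slc22a3* and *Slc16a13*) only in the WT library. Such a gene has to differ to be measured, and the families were not chosen blind to these data, so these counts describe the list and support nothing by themselves.

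**Figure D1:**
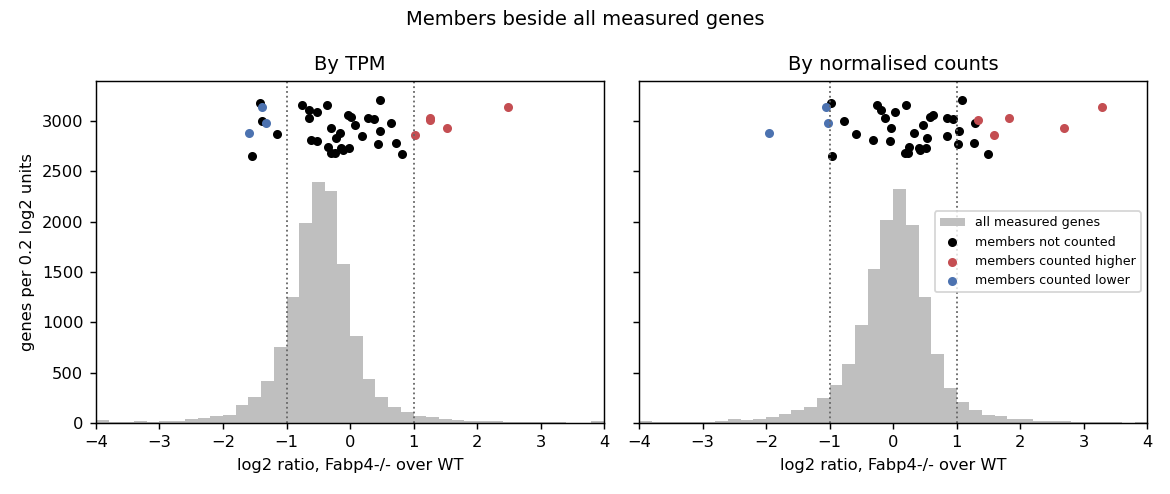
Histograms of the log2 ratio, *Fabp4*-/- over WT, of all 13557 measured genes by TPM (left) and by normalised counts (right), with values beyond 4 drawn in the outermost bins, and the 40 measured members as points at arbitrary heights above them. Red points are the 5 members counted higher, blue points the 3 counted lower, black points the other members, and dotted lines mark a 2-fold difference.

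The main bile acid uptake genes of the hepatocyte, *Slc10a1* and *Slco1b2*, lay in opposite directions. *Slc10a1* (ENSMUSG00000021135.7), which encodes the sodium-taurocholate cotransporter NTCP, the main carrier of conjugated bile acids from blood, is located at 80953185 to 80968079 of chromosome 12 (mm10). Its level was 71.3 TPM in the *Fabp4*-/- library and 29.6 TPM in the WT library, from 5648 and 2040 estimated read pairs. Its log2 ratio was 1.25 by TPM and 1.83 by normalised counts (1.76 to 1.91). *Slco1b2* (ENSMUSG00000030236.10), which encodes the liver OATP1B carrier of unconjugated bile acids, bilirubin and many drugs, is located at 141629518 to 141686646 of chromosome 6. Its level was 46.5 TPM in the *Fabp4*-/- library and 136 TPM in the WT library, from 7099 and 17894 read pairs. Its log2 ratio was −1.54 by TPM and −0.97 by normalised counts (−1.01 to −0.93), so it was more than 2-fold lower by TPM and just short of 2-fold by normalised counts. The order of this pair turned over between the libraries, since *Slc10a1* was at 1.53 times the TPM of *Slco1b2* in the *Fabp4*-/- library and 0.218 times in the WT library. Both genes are hepatocyte markers, and in bulk tumor RNA fewer cells of a type and less RNA per cell cannot be told apart. The pericentral and periportal marker shifts given above stand beside this pair, and their part in it was not tested.

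The start regions of these 2 uptake genes are shown because the pair diverged. Of the 71 members, 56 had a window in the RefSeq promoter table (GRCm38.p6), and the 250 bases before the annotated start are printed 5′ to 3′ on the gene's strand, chr12:80968080-80968329 (minus strand) for *Slc10a1* and chr6:141629268-141629517 (plus strand) for *Slco1b2*. Capitals mark letters found by a search on both strands for GTTAAT (part of the HNF1 site), AGGTCA (bound by nuclear receptors), CTTTGA (TCF and LEF) and CACGTG (an E box).
Slc10a1: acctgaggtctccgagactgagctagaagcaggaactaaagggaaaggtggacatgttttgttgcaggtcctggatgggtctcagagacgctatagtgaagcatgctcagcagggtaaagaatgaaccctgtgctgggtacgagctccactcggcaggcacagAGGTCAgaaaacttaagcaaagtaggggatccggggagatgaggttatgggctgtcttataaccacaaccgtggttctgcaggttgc
Slco1b2: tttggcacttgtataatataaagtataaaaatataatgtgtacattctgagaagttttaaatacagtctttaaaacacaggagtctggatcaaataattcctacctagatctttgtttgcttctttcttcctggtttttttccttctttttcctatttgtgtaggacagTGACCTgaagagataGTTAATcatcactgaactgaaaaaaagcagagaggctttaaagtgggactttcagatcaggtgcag
In the *Slc10a1* window the nuclear receptor letters begin 87 bases before the start. The *Slco1b2* window has the same letters on the other strand, beginning 81 bases before the start, and the HNF1 letters beginning 66 bases before it, which do not overlap. Neither window holds the TCF and LEF letters or the E box. Of all 32851 promoter windows of this length in the table, 6.43% hold the HNF1 letters, 14.0% the nuclear receptor letters, 13.8% the TCF and LEF letters and 6.02% the E box. Some genes have more than 1 start, and of the 65 windows of the 56 members 6 hold the HNF1 letters, 8 the nuclear receptor letters, 13 the TCF and LEF letters and 4 the E box. Letters in a window describe the sequence and say nothing of whether a factor binds.

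The other Slc10 genes are less well known or are known mainly from other cells, and which tumor cells expressed them was not tested. *Slc10a2*, which encodes the apical bile acid carrier ASBT of ileum and cholangiocytes, was at 14.9 TPM in the *Fabp4*-/- library and 10.8 TPM in the WT library, from 3149 and 1989 read pairs. Its log2 ratio was 0.44 by TPM and 1.02 by normalised counts (0.95 to 1.11), 2-fold by the second measure only. *Slc10a2* is itself 1 of 6 cholangiocyte markers, of which 5 were measured, 0 counted higher and 2 lower (*Krt7* and *Epcam*, both of biliary epithelium), with none at 0. Without *Slc10a2* the other 5 markers summed to 6.94 TPM in the *Fabp4*-/- library and 12.2 TPM in the WT library. All 5 had a TPM ratio below 0, where the median of all genes was −0.46. The largest of them, *Sox9*, was at 5.1 and 5.91 TPM (−0.19 by TPM and 0.35 by normalised counts), above the median gene by both measures. *Cftr* was not measured. *Slc10a5* (ENSMUSG00000058921.3), an orphan of the family, was at 1.38 TPM in the *Fabp4*-/- library and 4.22 TPM in the WT library, with log2 ratios of −1.33 by TPM and −1.02 by normalised counts (−1.25 to −0.84). It lies on chromosome 3 from 10331734 to 10335656, 123 kb from the targeted gene, and overlaps *Gm38303* on the same strand, with which it shares reads that RSEM divides by estimate. *Slc10a3* and *Slc10a7* had TPM ratios of −0.52 and −0.64, near the median of all genes, while the neuronal *Slc10a4* was at 0 read pairs in both libraries and *Slc10a6*, a carrier of sulfated steroids, at 0.07 and 0.12 TPM.

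**Figure D2:**
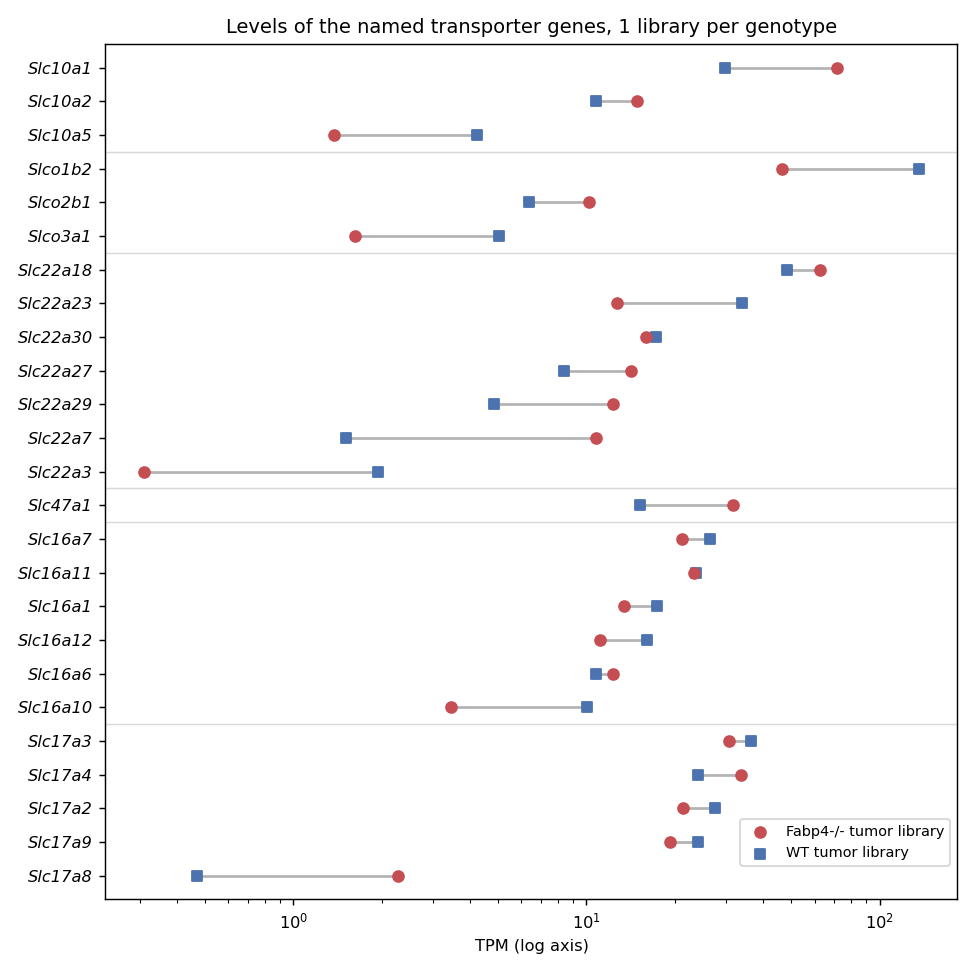
TPM (log axis) of 25 of the 27 members that reached 10 TPM in either library or were counted as different, grouped by family, with the *Fabp4*-/- library as red circles and the WT library as blue squares, 1 library each and therefore no error bars. *Slc10a1* and *Slco1b2* exchange order between the libraries, and *Slc22a7* and *Slc22a3* show the widest gaps in the Slc22 family.

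Among the organic anion transporting polypeptides, *Slco1b2* provided most of the mRNA in both libraries, 65.2% of the summed Slco TPM in the *Fabp4*-/- library and 86.4% in the WT library. *Slco1a1*, an OATP known to be strongly expressed in the liver of male mice, was at only 2.75 TPM in the *Fabp4*-/- library and 3.09 TPM in the WT library, and *Slco1a4* was at 1.88 and 1.93 TPM. Both therefore stood far below *Slco1b2* in the tumors of either genotype, with TPM ratios of −0.14 and −0.03. *Slco2b1*, a carrier of sulfated steroids, was at 10.2 TPM in the *Fabp4*-/- library and 6.37 TPM in the WT library (0.64 by TPM and 1.29 by normalised counts). The prostaglandin carrier *Slco2a1*, expressed by endothelium, was at 8.15 and 4.42 TPM (0.81 and 1.49). Its list of 7 endothelial markers, of which it is one, had 0 counted either way, and the other 6 summed to 51.2 TPM in the *Fabp4*-/- library and 49.1 TPM in the WT library. By normalised counts alone 3 of the 7 were at least 2-fold higher, *Slco2a1*, *Lyve1* (0.61 by TPM and 1.22 by normalised counts) and *Clec4g* (0.56 and 1.12). Of the other 6 markers, 3 had a TPM ratio below 0. *Slco3a1* (ENSMUSG00000025790.14), a broadly expressed OATP located at 74275419 to 74554780 of chromosome 7, had 1.62 TPM in the *Fabp4*-/- library and 5.04 TPM in the WT library, from 290 and 786 read pairs (−1.39 by TPM and −1.05 by normalised counts, −1.27 to −0.88). The summed Slco level was 71.2 TPM in the *Fabp4*-/- library and 157 TPM in the WT library, a gap made by *Slco1b2*. Of the 14 Slco genes 6 were measured, and the other 8 were at or below 0.11 TPM in the *Fabp4*-/- library and 0.35 TPM in the WT library.

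In the Slc22 family 11 of 25 genes were measured, and the median ratio was −0.11 (TPM) or 0.42 (normalised counts). *Slc22a3* (ENSMUSG00000023828.2), the gene of the extraneuronal cation carrier OCT3, was at 0.31 TPM in the *Fabp4*-/- library and 1.95 TPM in the WT library, from 54 and 300 read pairs (−1.60 and −1.95, −2.56 to −1.69). At this low level its TPM ratio depended on the pseudocount and was −2.32 after adding 0.1 TPM. The carnitine carrier gene *Slc22a5* was at 3.85 and 6.30 TPM (−0.64 and −0.13). *Slc22a15*, for a less studied carrier of the family, was at 4.13 and 3.91 TPM (0.07 and 0.46).

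*Slc22a7* (ENSMUSG00000067144.6) had the largest ratio of all measured members. It encodes OAT2, a hepatocyte carrier of organic anions and cyclic nucleotides, and is located at 46432185 to 46438477 of chromosome 17. Its level was 10.8 TPM in the *Fabp4*-/- library and 1.51 TPM in the WT library, from 1045 and 127 read pairs, with log2 ratios of 2.49 by TPM and 3.29 by normalised counts (3.14 to 3.68). Next to it in size among the anion carriers was *Slc22a29* (ENSMUSG00000075044.11), a rodent gene of the organic anion transporter cluster on chromosome 19, at 12.3 TPM in the *Fabp4*-/- library and 4.82 TPM in the WT library, from 563 and 281 read pairs (1.26 and 1.33, 1.16 to 1.58). Its neighbor *Slc22a27* was at 14.1 and 8.38 TPM (0.72 and 1.27), and *Slc22a30* at 15.9 and 17.2 TPM (−0.11 and 0.42). These neighboring genes are similar in sequence and their read pairs were not whole numbers, so the split of reads among them is an estimate. *Slc22a29* also had 45.9 read pairs per TPM in the *Fabp4*-/- library and 58.2 in the WT library. Relative to the median of genes with at least 2 TPM in both libraries, this was a log2 shift of −0.55, which raises its TPM ratio. Its call as higher by TPM includes this shift, and the ratio without it was not computed. *Slc22a18*, an imprinted gene, was at 62.4 TPM in the *Fabp4*-/- library and 48.1 TPM in the WT library (0.37 and 0.94). The orphan *Slc22a23* was at 12.7 and 33.9 TPM (−1.38 and −0.78, −0.83 to −0.72). The kidney carriers *Slc22a6* and *Slc22a8*, known as OAT1 and OAT3, were at 0 read pairs in both libraries, and the kidney urate carrier *Slc22a12* at 0.02 and 0.10 TPM, and 0 of 5 kidney tubule markers were measured, with *Slc34a1* and *Umod* at 0. A count of 0 allows up to 3 read pairs.

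The extruder of the cation route was counted higher. *Slc47a1* (ENSMUSG00000010122.14) encodes MATE1, which exchanges organic cations for protons at the bile canaliculus, and is located at 61343401 to 61378345 of chromosome 11. Its level was 31.6 TPM in the *Fabp4*-/- library and 15.3 TPM in the WT library, from 4005 and 1715 read pairs (1.03 by TPM and 1.58 by normalised counts, 1.51 to 1.67). The adjacent gene *Slc47a2*, for the related MATE2, was below the minimum of 1 TPM and pointed the other way, at 0.05 TPM in the *Fabp4*-/- library and 0.83 TPM in the WT library, from 6 and 84 read pairs.

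**Figure D3:**
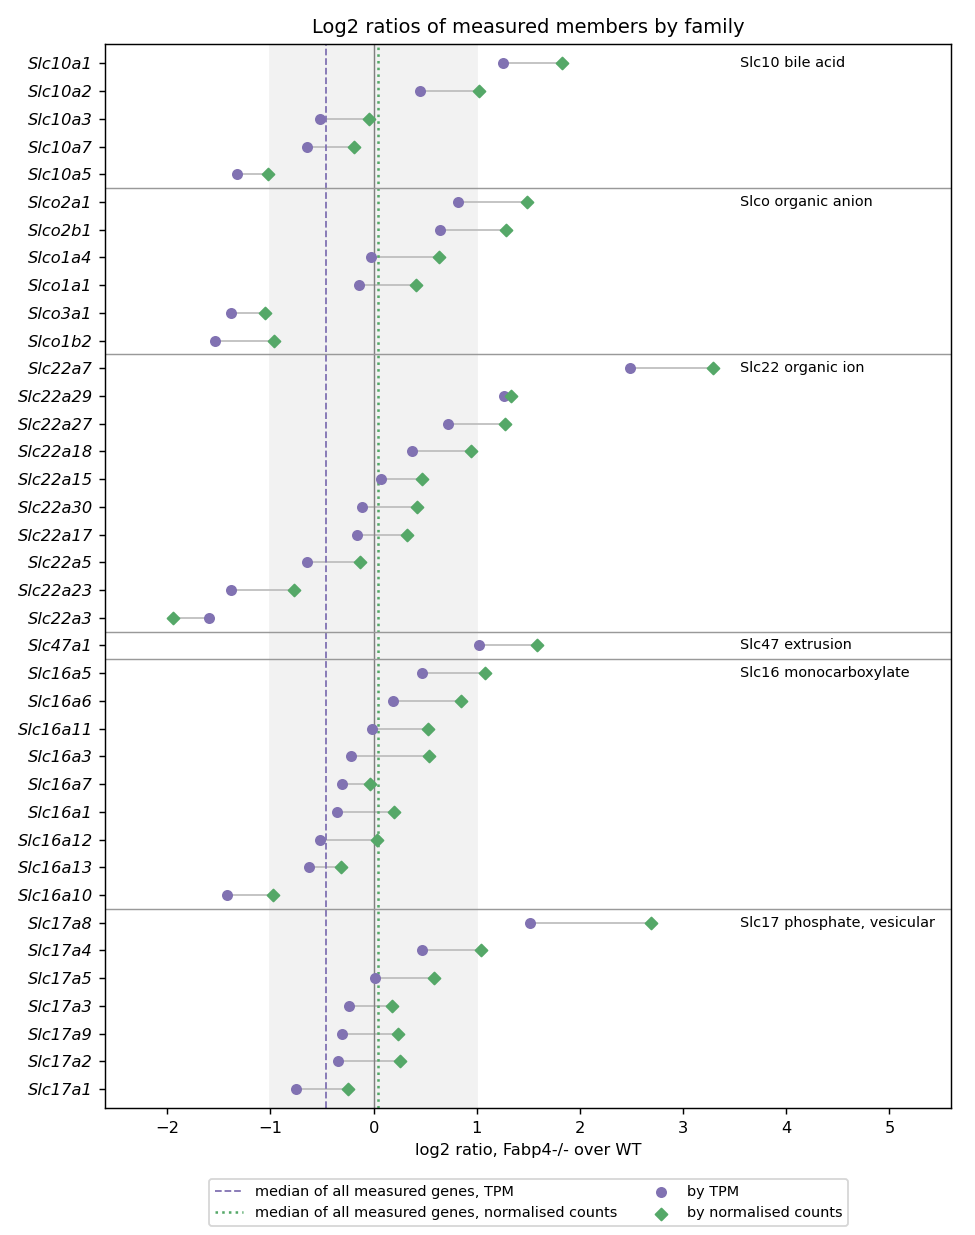
Log2 ratio, *Fabp4*-/- over WT, of 38 of the 40 measured members by family, by TPM (violet circles) and by normalised counts (green diamonds), with a line joining the 2 values of each gene. Vertical lines mark the median of all measured genes by TPM (−0.46, dashed) and by normalised counts (0.04, dotted), and the gray band marks less than a 2-fold difference. Green lies to the right of violet for every gene drawn but *Slc22a3*.

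Of the 10 measured monocarboxylate transporter genes of the Slc16 family, 0 were counted higher or lower, and their median ratio was −0.26 by TPM and 0.36 by normalised counts. *Slc16a1*, which encodes the lactate and ketone body carrier MCT1, was at 13.4 TPM in the *Fabp4*-/- library and 17.4 TPM in the WT library, and its direction turned with the measure (−0.36 by TPM and 0.20 by normalised counts, 0.13 to 0.27). *Slc16a3*, the gene of the lactate exporter MCT4 of glycolytic cells, was low, at 1.16 and 1.43 TPM, and *Slc16a7*, for the high-affinity MCT2, was at 21.2 and 26.3 TPM (−0.30 and −0.04). The glycolytic enzyme gene *Ldha*, which makes lactate, was at 578 TPM in the *Fabp4*-/- library and 633 TPM in the WT library. *Bsg*, the chaperone that brings MCT1 and MCT4 to the membrane, was at 399 and 457 TPM, so neither the carriers nor these partners differed 2-fold by either measure.

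The other Slc16 members named had TPM ratios from −1.42 (*Slc16a10*) to 0.47 (*Slc16a5*). *Slc16a10*, for the aromatic amino acid carrier TAT1, was at 3.45 TPM in the *Fabp4*-/- library and 10.1 TPM in the WT library, from 959 and 2437 read pairs. The log2 ratios were −1.42 (TPM) and −0.98 (normalised counts, −1.09 to −0.87), just short of 2-fold by the second measure. *Slc16a6*, whose zebrafish counterpart exports ketone bodies from the liver, was at 12.3 and 10.7 TPM (0.19 and 0.84). It overlaps the genes *Arsg* and *Amz2* on the opposite strand, and whether strand entered the counting is not stated. The creatine carrier gene *Slc16a12* was at 11.1 TPM in the *Fabp4*-/- library and 16.1 TPM in the WT library (−0.52 and 0.03), and *Slc16a11*, a gene linked to diabetes risk in humans, at 23.3 and 23.6 TPM (−0.02 and 0.52). *Slc16a5* was 2-fold higher by normalised counts alone, at 2.26 and 1.49 TPM (0.47 and 1.08).

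Of 7 measured Slc17 genes, 1 was counted higher and 0 lower. *Slc17a8* (ENSMUSG00000019935.16), which encodes the vesicular glutamate transporter VGLUT3 known from neurons, was at 2.28 TPM in the *Fabp4*-/- library and 0.47 TPM in the WT library, from 520 and 94 read pairs (1.52 by TPM and 2.69 by normalised counts, 2.51 to 3.16). The other vesicular glutamate transporters, *Slc17a6* and *Slc17a7*, were at 0 read pairs in the *Fabp4*-/- library and 2 each in the WT library. The 4 neighboring sodium-phosphate and urate carriers of chromosome 13 stayed within 2-fold by TPM. *Slc17a3* was at 30.6 TPM in the *Fabp4*-/- library and 36.3 TPM in the WT library, *Slc17a2* at 21.4 and 27.4 TPM, and *Slc17a1* at 3.86 and 6.87 TPM. *Slc17a4*, on the opposite strand at the end of this cluster, was at 33.6 and 24.1 TPM (0.47 by TPM and 1.04 by normalised counts, 0.97 to 1.12). *Slc17a9*, for the vesicular ATP transporter VNUT, was at 19.3 and 24.0 TPM, and the lysosomal sialic acid exporter gene *Slc17a5* at 7.20 and 7.12 TPM.

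Members that lie next to each other were also read together. In the Slco1 cluster of chromosome 6, 6 genes lie within 799 kb, and *Slco1b2* had a TPM ratio of −1.54 where *Slco1a4* and *Slco1a1* had −0.03 and −0.14. In the pair on chromosome 11, which spans 76.7 kb, *Slc47a1* was counted higher and *Slc47a2* had 6 read pairs in the *Fabp4*-/- library and 84 in the WT library. In the chromosome 19 cluster of 955 kb, 3 of 8 Slc22 genes were measured, and the kidney genes *Slc22a8* and *Slc22a6* at its end had no reads.

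**Figure D4:**
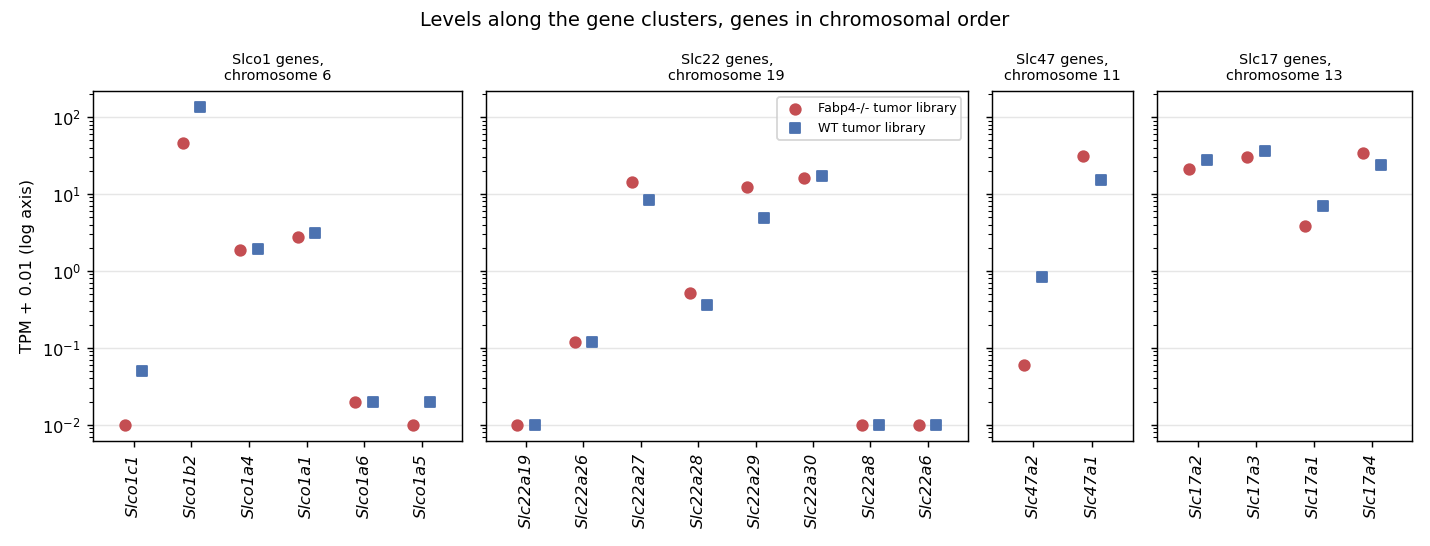
TPM plus 0.01 (log axis) of members in 4 gene clusters, genes in chromosomal order from left to right, with the *Fabp4*-/- library as red circles and the WT library as blue squares. A value of 0 TPM is drawn at 0.01, and *Slc47a2* and *Slc47a1* show opposite gaps side by side.

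The genes that work with these transporters were read from lists of their own. Of 13 measured exporters and flippases at the bile or blood side of the hepatocyte, 0 were counted higher and 2 lower (*Abcc4*, a drug and bile acid exporter of the blood side, at 1.17 and 6.73 TPM, and *Abcb1b*, a multidrug pump, at 0.37 and 2.05 TPM). By 1 measure only, *Abcb4* was at least 2-fold lower, at 33.45 TPM in the *Fabp4*-/- library and 81.75 TPM in the WT library (−1.28 by TPM and −0.75 by normalised counts). *Abcg2* was 2-fold higher by normalised counts only, at 19.3 and 14.4 TPM (0.41 and 1.07). The bile salt export pump gene *Abcb11* was at 66.3 TPM in the *Fabp4*-/- library and 77.7 TPM in the WT library (−0.23 by TPM and −0.09 by normalised counts). Of 17 measured genes of bile acid synthesis and conjugation, 2 were counted higher and 0 lower. They are *Cyp8b1*, which sets the share of cholic acid in the bile acid pool, at 40.7 and 8.15 TPM, and *Akr1d1*, a steroid reductase of the pathway, at 14.9 and 6.27 TPM. Past 2-fold by 1 measure only were *Cyp2c70*, higher (0.92 by TPM and 1.49 by normalised counts), and *Akr1c6*, lower (−1.22 and −0.65). *Cyp7a1*, the rate-limiting enzyme of the pathway, was low in both, at 1.73 TPM in the *Fabp4*-/- library and 2.06 TPM in the WT library. Of 14 nuclear receptors and other factors that act on transporter genes, 14 were measured and 0 were counted either way. The bile acid receptor gene *Nr1h4* was at 39.9 and 36.02 TPM, its target *Nr0b2* at 14.9 and 16.3 TPM, and *Hnf4a* at 134 and 171 TPM. Of 9 measured genes of carnitine synthesis, transport and use, 0 were counted, with a median TPM ratio of −0.44 beside −0.46 for all genes. The member *Slc22a5* is among them, and the member *Slc22a21* is listed but was not measured. Among the 7 measured partners and scaffolds 0 were counted, and *Pdzk1*, which anchors several of these carriers, was at 24.1 and 38.3 TPM. Of 16 measured genes that make, use or carry in plasma substrates of the Slc16 family, 1 was counted higher and 1 lower. The first is *Ttr*, for the thyroid hormone carrier of plasma, at 7455 and 3469 TPM, which is also 1 of the hepatocyte markers counted higher above. The second is *Ldhb*, a lactate dehydrogenase subunit, at 2.10 and 7.0 TPM. In the same list *Gamt* (0.74 by TPM and 1.32 by normalised counts) and *Bdh2* (0.72 and 1.28) were at least 2-fold higher by normalised counts only.

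Of the 31 members under the minimum, 10 had 0 read pairs in both libraries and 8 had 0 in the *Fabp4*-/- library and at most 5 in the WT library, where no ratio is given. None had 0 in the WT library alone.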

How the data were processed

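Paired-end libraries of 151 bp reads were aligned to mm10 with STAR 2.5.2 and quantified with RSEM 1.2.31, per the submitters' processing notes. Annotation release, strand setting and mouse numbers were not stated there. The authors deposited TPM and a normalised count signal per gene, scaled so that 1 read pair was worth 1.13 (*Fabp4*-/-) or 0.882 (WT), and estimated read pairs were recovered by division. Their fold change, PPDE and FDR columns were not used. The labels and the methods name different RNA kits and sequencers.

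Members were selected by symbol, and members and gene lists were chosen with earlier results of these data known. Measured genes had at least 1 TPM in the higher library. Log2 ratios used pseudocounts of 0.5 TPM and 10 normalised counts, and a call needed 2-fold by both. The genes named were those at 10 TPM or more in the higher library or called, with others given for context after their values were seen. Alternatives changed the measure, pseudocounts, minimum, threshold and centring. The code that makes the calls was tested on simulated data, which does not stand in for replicates. The values of 2 members are not reported here. Scripts ran in Python 3.11.15 with scipy 1.17.1, pandas 2.3.3 and numpy 2.4.6, and figures were drawn in matplotlib 3.10.9.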

Additional observations from a re-analysis of the deposited data

How the results depend on the processing

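The 5 members counted higher became 11 by normalised counts alone, 8 after centring TPM on the median of all measured genes, 8 at a 1.5-fold threshold and 1 at a 3-fold threshold. The 3 counted lower became 7 by TPM alone, 1 after centring, 1 with a minimum of 5 TPM, 6 at 1.5-fold and 1 at 3-fold. After centring, *Slc10a5* (−0.87) and *Slco3a1* (−0.93) fell short of 2-fold by TPM and only the low *Slc22a3* (−1.14) stayed. *Slco1b2*, not counted, was at −1.08 by centred TPM. With a minimum of 5 TPM only *Slco3a1* stayed. The median ratio of the measured members, −0.15 by TPM, was 0.41 by normalised counts and 0.31 after centring, which only subtracts the median of all genes, −0.46, and the median of normalised counts less that of all genes was 0.37. With 0.1 and 1 TPM added, *Slc22a3* had ratios of −2.32 and −1.17 and *Slc17a8* 2.06 and 1.16, all past 2-fold. Of the 27 named members 7 turned sign by normalised counts (*Slc16a1*, *Slc16a11*, *Slc16a12*, *Slc17a2*, *Slc17a3*, *Slc17a9* and *Slc22a30*), none of them counted as different. No paired analysis was possible because there was 1 library a genotype. Depth limits the genes of few read pairs, such as *Slc47a2* with 6 in the *Fabp4*-/- library and 84 in the WT library.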

Other observations

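*Slc22a29* had 45.9 read pairs per TPM in the *Fabp4*-/- library and 58.2 in the WT library. Relative to the median of 10230 genes with at least 2 TPM in both libraries, this was a log2 shift of −0.55. Of those genes, 0.831% had a lower shift. Around *Slc10a5* on chromosome 3, the neighbor *Impa1* (inositol monophosphatase) was at 23.3 TPM in the *Fabp4*-/- library and 30.2 TPM in the WT library, and *Zfand1* at 8.06 and 10.3 TPM. *Fabp5*, on the other side of the deleted gene, was at 178 and 92.0 TPM (0.95 by TPM and 1.54 by normalised counts), past 2-fold by the second measure only. *Gm38303*, which overlaps *Slc10a5*, was at 0.41 TPM in the *Fabp4*-/- library and 1.38 TPM in the WT library (−1.05 by TPM and −0.66 by normalised counts), and beyond *Zfand1* the genes *Chmp4c* and *Snx16* had ratios of −0.95 and −0.61 by TPM and −0.54 and −0.18 by normalised counts. None of these 6 was counted as different.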
